A study of Rattus norvegicus with 12 samples.

Results

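Fos, Jun and Junb, 3 genes of the AP-1 family of transcription factors, were followed in the CA1 field of the rat hippocampus after a spatial learning task. Every probe set whose only gene symbol in the platform annotation was Fos, Jun or Junb was taken, which gave 6 of 15923 probe sets on the array and 3 of the 10412 genes that the annotation names singly. Fos had 2 probe sets, Jun had 3 and Junb had 1. Male Long-Evans rats aged 3 to 4 months were trained in a standard water maze, and 2 to 3 weeks later received 8 trials, 8 min apart, in an unfamiliar maze. Rats of the spatial learning group (6 animals) could use orienting cues and found a visible platform in a fixed place, whereas the control task group (6 rats) swam to a visible platform that moved between trials without informative cues. A probe trial of 90 s followed 1 h later for both groups, and the hippocampus was dissected directly afterwards. CA1 was microdissected and the RNA of each animal was hybridised to 1 Affymetrix RAE230A array, so that both groups shared the earlier maze training, the swimming and the probe trial. No rat taken straight from its home cage is among the 12 arrays, and the other hippocampal fields were not analysed here. The comparison asks how CA1 transcript levels differed between animals given a fixed place with cues and animals that swam to a moving platform without them. No measure of how well each animal learned was used here.

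AP-1 is a dimer of basic leucine zipper proteins. Fos proteins cannot pair with each other and bind DNA with a Jun partner, whereas Jun proteins can also pair among themselves. Fos and Junb are immediate-early genes, transcribed within minutes of neuronal activity through calcium and MAP kinase signals acting on CREB and serum response factor, and their mRNAs are short-lived. Fos mRNA and protein are widely used as marks of recently active neurons, in the hippocampus among other regions. Jun is expressed at a higher resting level in neurons and its protein is activated by JNK kinases, while Junb is a weaker activator that can oppose Jun at some genes.

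The RefSeq gene table of the GRCr8 build places Jun at chr5:115009900-115012993, Fos at chr6:110852188-110855054 and Junb at chr19:40081126-40082910. The RefSeq promoter table holds an entry for Junb and none for Fos or Jun, so only the Junb promoter is printed here. The stretch is chr19:40080876-40081175 of GRCr8 on the plus strand, 250 bases before and 50 bases after the annotated start, and capitals mark the motifs found.
Junb promoter: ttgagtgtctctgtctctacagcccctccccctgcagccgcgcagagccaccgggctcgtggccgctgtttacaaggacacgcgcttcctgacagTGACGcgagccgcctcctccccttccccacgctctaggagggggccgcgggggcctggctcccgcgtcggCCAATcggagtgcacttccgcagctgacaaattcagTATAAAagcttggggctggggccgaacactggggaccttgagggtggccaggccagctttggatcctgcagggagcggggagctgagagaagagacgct
Both strands were searched. The short form of the cAMP response element, TGACG, lay 155 bases before the start, a motif in 21.2% of the 33469 promoters of the table, the CCAAT box lay 85 bases before it (CCAAT, in 37.5%), and the TATA box lay 49 bases before it (TATAAA, in 14.2%). The full cAMP response element (TGACGTCA, which contains the short form, in 1.83%), the AP-1 site (TGANTCA, in 7.33%), the Egr site (GCGNGGGCG, in 4.98%) and the CArG box bound by serum response factor (in 1.64%) were not among the letters of this window.

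Across the 12 arrays the deposited log2 values ran from 0.13 to 14.79, and 9610 probe sets with a mean of at least 4 that were not manufacturer controls were tested. Arrays correlated with each other at 0.989 to 0.995 over these probe sets. CA1 markers were present: 8 of the 10 listed genes were on the array and all 8 were tested, with a mean log2 level of 10.30 to 10.52 in control task rats and 10.37 to 10.65 in spatial learning rats. Transcripts of the choroid plexus or meninges were high on 3 arrays, control task replicates 3 and 6 and spatial learning replicate 6. Precision is limited by having 6 arrays in each group, and a bulk array cannot tell fewer cells of a type from less RNA per cell. Each difference below is spatial learning minus control task in log2 units.

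Fos was lower in CA1 after spatial learning than after the control task, Jun was lower by a smaller amount in each of its probe sets, and Junb was nearly level, but no probe set of these genes passed the adjusted threshold. In limma, with p-values adjusted by Benjamini-Hochberg across the 9610 tested probe sets, 0 of them (0%) passed an adjusted p of 0.05, and 1048 (10.9%) had an unadjusted p under 0.05; the exact rank-sum test also left 0 past the adjusted threshold. The 5 tested probe sets of Fos, Jun and Junb included 4 with an unadjusted p under 0.05, all with a lower mean in spatial learning rats. At that level 4.55% of all tested probe sets were lower and 6.36% higher, and by any amount 46.3% were lower and 53.7% higher. These 4 stand for 2 genes, and the genes were chosen with their differences known, so that share is a description. By the exact rank-sum test the unadjusted p was 0.00866 for Fos 1375043_at. It was 0.0649 for Jun 1389528_s_at, 0.0931 for Jun 1369788_s_at and 0.132 for Jun 1374404_at, so no Jun probe set was under 0.05 by that test. The groups of no member probe set separated fully, as those of 0.635% of all tested probe sets did.

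**Figure D1:**
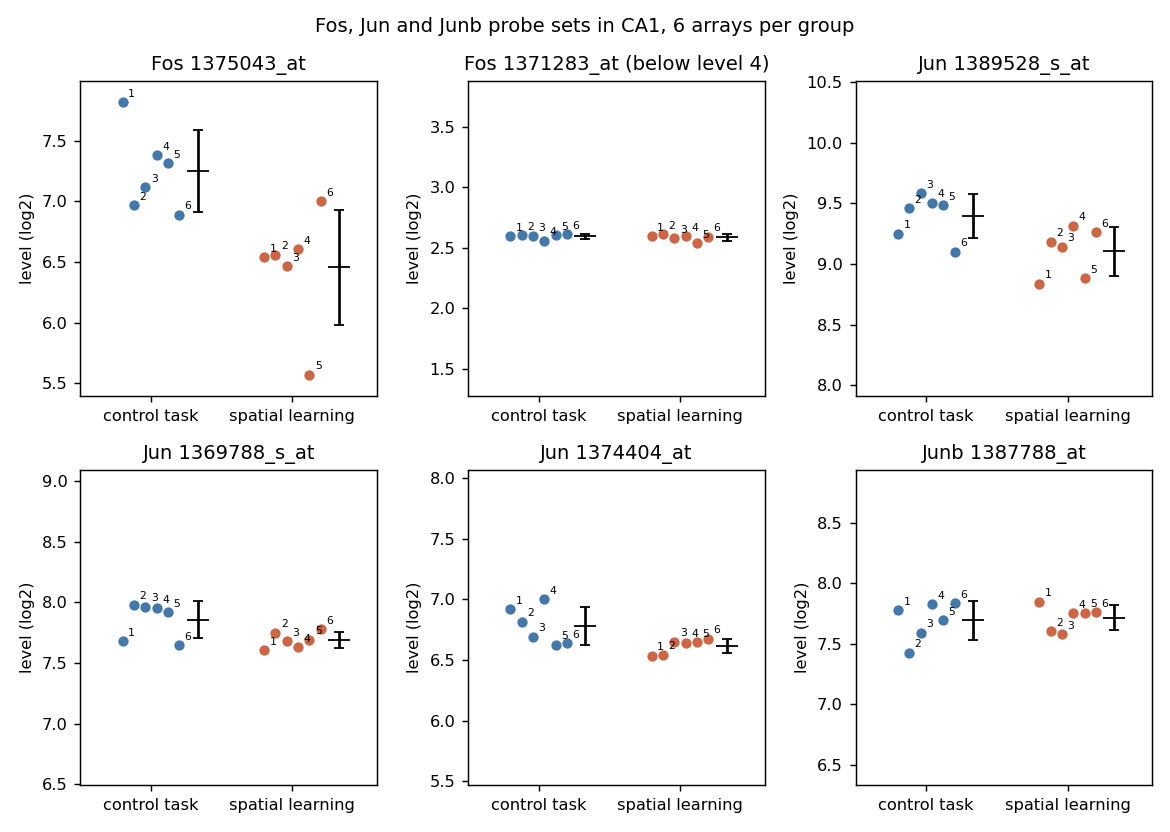
Log2 level of each Fos, Jun and Junb probe set (vertical axis) on each of the 6 control task and 6 spatial learning arrays, with one panel per probe set, points for arrays and bars for group means with SD; all panels span the same number of log2 units. Fos 1375043_at spreads over 2.25 log2 units, and its lowest point is spatial learning replicate 5 at 5.57.

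Fos 1375043_at, whose probes were designed on the sequence tag BF415939, had a lowest, median and highest log2 level of 6.89, 7.22 and 7.82 in control task rats. In the spatial learning group these were 5.57, 6.55 and 7.001. Of the 6 spatial learning arrays, 5 lay below the lowest control array, and spatial learning replicate 6 at 7.001 was the one inside the control range, above control task replicates 2 and 6. Group means were 7.25 ± 0.34 and 6.46 ± 0.47 (SD, n = 6 each). The difference was -0.79 (SE 0.21, 95% interval -1.24 to -0.34), or 0.578 of the control level on a linear scale, with a limma p of 0.00236, 64th in order of p, and an adjusted p of 0.348. The exact permutation test of this probe set alone, over every way to choose 6 of 12 arrays, gave a two-sided p of 0.00649, unadjusted.

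Fos 1375043_at was also among the most variable probe sets. Its SD within groups, 0.41, was at the 98.6th percentile of all tested probe sets, whose median SD was 0.12. Its difference in size was at the 99.9th percentile, against a median absolute difference of 0.06. In each group the range of Fos was wider than that of any Jun or Junb probe set.

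The other Fos probe set, 1371283_at, built on the mRNA record M34001, was dim in CA1, at the 18.9th percentile of level among probe sets that were not controls. Its log2 level ran from 2.54 to 2.61 over the 12 arrays, below the filter level of 4, with means of 2.59 ± 0.02 and 2.59 ± 0.03 (SD, n = 6 each). The groups overlapped throughout, and the difference was -0.0090 with an exact permutation p of 0.519. The lower Fos level therefore rests on 1 probe set, since the second lay below the filter and hardly varied between arrays.

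Jun was read by 3 probe sets, of which 1389528_s_at and 1374404_at were designed on the same sequence tag, BI288619, and the third on the RefSeq mRNA. The brightest, 1389528_s_at, had a lowest, median and highest log2 level of 9.10, 9.47 and 9.58 in control task rats and 8.84, 9.16 and 9.31 in spatial learning rats. Spatial learning replicates 1 and 5 lay below every control array, 4 control arrays lay above every spatial learning array, and the remaining arrays overlapped. Means were 9.40 ± 0.18 and 9.10 ± 0.20 (SD, n = 6 each). The difference was -0.29 (SE 0.10, 95% interval -0.51 to -0.08, limma p 0.0117, adjusted p 0.420), or 0.816 of the control level, and the exact permutation p was 0.0281.

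Jun 1369788_s_at had a lowest, median and highest log2 level of 7.65, 7.93 and 7.98 in control task rats and 7.61, 7.69 and 7.78 in spatial learning rats. The control arrays fell into 4 at 7.92 to 7.98 and 2, replicates 1 and 6, at 7.68 and 7.65, among the spatial learning arrays. The difference was -0.17 (SE 0.07, 95% interval -0.31 to -0.02, limma p 0.0278, adjusted p 0.431; exact permutation p 0.0390).

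Jun 1374404_at, the dimmest of the 3, had a lowest, median and highest log2 level of 6.63, 6.75 and 7.004 in control task rats and 6.54, 6.65 and 6.68 in spatial learning rats. Here the controls inside the spatial learning range were replicates 5 and 6, and control task replicate 1, low in the other Jun probe sets, was the second highest array at 6.92. The difference was -0.17 (SE 0.07, 95% interval -0.32 to -0.02, limma p 0.0329, adjusted p 0.436; exact permutation p 0.0455). Control task replicate 6 was thus low in all 3 Jun probe sets, and every spatial learning array was below the control mean in each of them, as it was in Fos 1375043_at.

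Junb 1387788_at had a lowest, median and highest log2 level of 7.43, 7.74 and 7.84 in control task rats and 7.58, 7.75 and 7.85 in spatial learning rats. The groups overlapped, with control task replicate 2 the lowest array. Means were 7.69 ± 0.16 and 7.72 ± 0.10 (SD, n = 6 each), and the difference was 0.02 (SE 0.08, limma p 0.753, adjusted p 0.928; exact permutation p 0.781). Its 95% interval, -0.14 to 0.19, leaves out a difference as large as that of Fos.

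**Figure D2:**
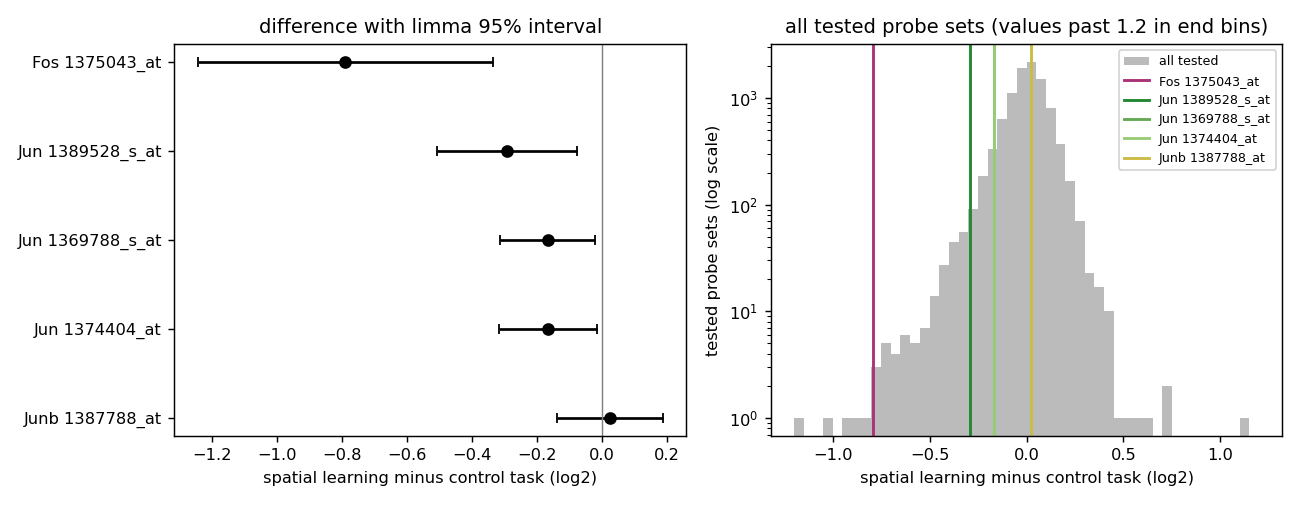
Left, the difference between spatial learning and control task (log2, horizontal axis) of the 5 tested probe sets with limma 95% intervals; right, the number of tested probe sets (log axis) at each difference, with coloured lines at the Fos, Jun and Junb probe sets. The interval of Junb covers 0 and those of Fos and Jun lie below it, and Fos at -0.79 is in the thin lower tail of all 9610 probe sets.

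Whether the members differed from each other in their group difference was tested on the brightest probe set of each gene, as the log2 level of one gene minus that of the other on each array. Fos minus Junb differed between the groups by -0.81 (exact permutation p 0.00433, 0.0130 after Benjamini-Hochberg adjustment over the 3 gene pairs). It stayed under 0.05 without any one array, with values from -0.92 to -0.63 and adjusted p-values from 0.0130 to 0.0325. Fos minus Jun differed between the groups by -0.50 (exact permutation p 0.0325, adjusted 0.0487). This was not stable: without control task replicate 1, 4 or 5, or without spatial learning replicate 2, 3, 4 or 5, the adjusted p was 0.0736 to 0.110, with values from -0.50 to -0.35. Jun minus Junb differed between the groups by -0.32 (exact permutation p 0.0779, adjusted 0.0779), which was -0.41 with an adjusted p of 0.0390 without control task replicate 6. The genes were chosen with the difference of Fos known, and these p-values are not adjusted over the array.

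Of 3 control genes read for RNA quality, hexokinase differed between the groups past its adjusted threshold and beta-actin and GAPDH did not. The CA1 marker mean was higher in spatial learning rats without passing its own adjusted threshold. The mean of the 8 CA1 markers, with 7 higher and 1 lower in spatial learning rats, was 10.39 ± 0.07 in control task rats and 10.55 ± 0.10 in spatial learning rats (SD, n = 6 each; exact permutation p 0.0152, 0.0833 after adjustment over 11 marker lists). Itpka, Wfs1 and Fibcd1 differed by 0.27, 0.29 and 0.36. Control task replicate 6, the highest control in CA1 markers, was the lowest control in Fos, and spatial learning replicate 6, the lowest of its group in CA1 markers, was the highest of its group in Fos. With the CA1 marker mean as a covariate in limma, the difference of Fos was -0.38 (SE 0.26, p 0.166, adjusted p 0.838), that of Jun 1389528_s_at was -0.07 (adjusted p 0.951) and that of Jun 1369788_s_at was -0.05 (adjusted p 0.959). Jun 1374404_at was -0.09 (adjusted p 0.919) in that fit, and -0.07 (adjusted p 0.748) with the dentate granule marker mean as a covariate.

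The dentate granule marker mean (5 tested genes, 4 lower; Dsp and Tdo2 below the filter) ran from 7.33 to 7.83 in control task rats and from 7.30 to 7.61 in spatial learning rats (exact permutation p 0.0952), and with it as a covariate the difference of Fos was -0.63 (adjusted p 0.526). The gap between 3' and 5' hexokinase control probes widens as RNA is degraded or shortened. It was 1.35 to 1.55 in control task rats and 1.55 to 1.82 in spatial learning rats (exact permutation p 0.00433, 0.0130 after adjustment over 3 control genes). The beta-actin gap differed by 0.096 (exact permutation p 0.0779, adjusted 0.117) and the GAPDH gap by -0.00019 (exact permutation p 0.998). With the hexokinase gap as a covariate the difference of Fos was larger in size, -0.98 (limma adjusted p 0.721). In that fit Jun 1389528_s_at was -0.34 (limma p 0.0370), Jun 1369788_s_at was -0.18 (limma p 0.0899) and Jun 1374404_at was -0.16 (limma p 0.132). The part of the beta-actin gap in the Fos and Jun differences was not tested. Choroid plexus transcripts (3 tested genes; 6 below the filter) had a mean of 7.08 in control task rats and 5.89 in spatial learning rats (exact permutation p 0.0130, adjusted 0.0833). Control task replicate 3, at 9.49, carried much of this: without it the control mean was 6.60 and the difference was -0.70, against -1.19 with it. The genes did not go one way, at -3.33 for Ttr, -0.41 for Enpp2 and 0.18 for Kcne2. Without the 3 arrays high in choroid plexus or meningeal transcripts, the difference of Fos was -1.02 (SE 0.23, adjusted p 0.137). Astrocyte markers differed by -0.06 (exact permutation p 0.0390, adjusted 0.143), and the beta-globin transcript of blood differed by -0.38 (exact permutation p 0.0628); the part of either in the Fos and Jun differences was not tested. CA3, oligodendrocyte, microglia, interneuron, endothelial and meningeal markers had exact permutation p-values from 0.210 to 0.965; Dcn is in both the CA1 and the meningeal list.

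**Figure D3:**
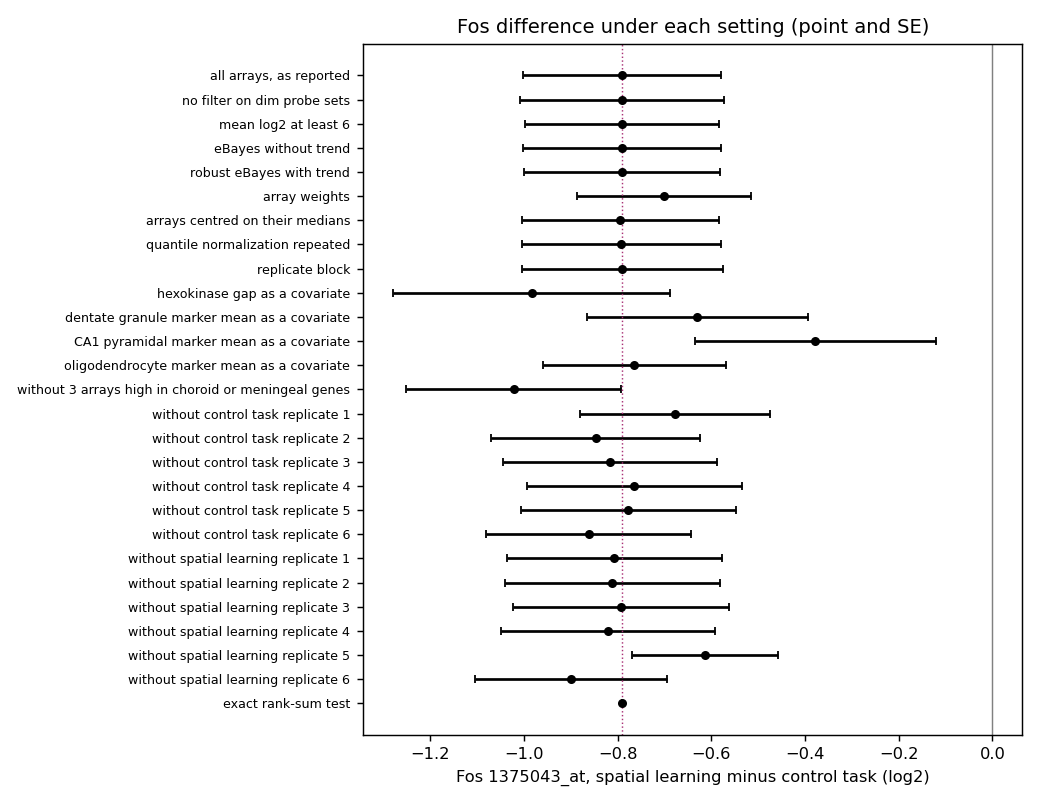
Difference of Fos 1375043_at between spatial learning and control task (log2, horizontal axis) with its SE under each way of fitting the data (vertical axis). All points lie below 0, from -1.02 without the 3 arrays high in choroid plexus or meningeal transcripts to -0.38 with the CA1 marker mean as a covariate. Changes of filter, moderation, replicate block or test cannot move the point itself.

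Over the 12 arrays, the Jun probe sets 1389528_s_at and 1369788_s_at went together. Pearson's r was 0.82 (permutation p 0.0118 after adjustment over 10 pairs of probe sets) and Spearman's rho was 0.76 (permutation, adjusted p 0.0490). Without spatial learning replicates 1 and 5, the arrays farthest from the median of 1389528_s_at, r was 0.88. Within the control task group r was 0.95 (exact permutation p 0.0181), and within the spatial learning group it was 0.41 (exact permutation p 0.404). Without the 3 arrays named above, r was 0.78 with an adjusted permutation p of 0.174. The third Jun probe set, 1374404_at, had an r of 0.51 with 1389528_s_at (rho 0.55, adjusted permutation p 0.182 for r and 0.134 for rho), although both were designed on the same sequence tag. Its r with 1369788_s_at was 0.45 (rho 0.55, adjusted permutation p 0.223 and 0.134).

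Fos and Jun 1389528_s_at had an r of 0.67 (permutation p 0.0164, adjusted 0.0822) and a rho of 0.73 (permutation, adjusted p 0.0490). Without control task replicate 1 and spatial learning replicate 5, the arrays farthest from the median of Fos, r was 0.75. The relation did not hold within the control task group, where r was 0.00 (exact permutation p 1), and it was 0.64 (exact permutation p 0.174) within the spatial learning group. On deviations from the group means, which leave out the difference between groups, r was 0.38. With Jun 1369788_s_at, Fos had an r of 0.42 (rho 0.51, adjusted permutation p 0.223 and 0.134). With Jun 1374404_at, Fos had an r of 0.60 (rho 0.57, adjusted permutation p 0.142 and 0.134). On deviations from the group means these were -0.04 and 0.30. On the levels themselves, which hold the difference between groups, r was 0.80 and 0.65 without control task replicate 1 and spatial learning replicate 5. Fos and Junb had an r of 0.05 (rho 0.13, permutation p 0.886 and 0.700). Junb had an r of -0.42 with Jun 1389528_s_at and of -0.51 with Jun 1369788_s_at (rho -0.40 and -0.51), with adjusted permutation p-values of 0.223 and 0.182 for r, and these were -0.24 and -0.08 without the 2 arrays farthest from the median of each Jun probe set. With Jun 1374404_at, Junb had an r of 0.03 (rho -0.15, adjusted permutation p 0.924 and 0.700). That r was -0.61 without control task replicates 1 and 4, the arrays farthest from the median of Jun 1374404_at.

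Fos and Jun also varied against the CA1 marker mean. Fos had an r of -0.78 with it (permutation, adjusted p 0.0450 over 39 relations) and a rho of -0.80 (adjusted permutation p 0.0790), and r was -0.79 without control task replicate 1 and spatial learning replicate 5. Within the groups r was -0.36 (control task, exact permutation p 0.474) and -0.66 (spatial learning, exact permutation p 0.212). Jun 1389528_s_at had an r of -0.80 (permutation, adjusted p 0.0450) and a rho of -0.64 (adjusted permutation p 0.159), with -0.55 (exact permutation p 0.262) and -0.70 (exact permutation p 0.0944) within the groups and -0.61 without spatial learning replicates 1 and 5. Neither relation passed within a group. Junb had an r of 0.36 with the CA1 marker mean (rho 0.24, adjusted permutation p 0.452 and 0.618). None of the other relations passed by r, and none of the 39 passed by rho. CA1 markers were not the only ones with a high rho. Jun 1389528_s_at had a rho of 0.78 with the CA3 marker mean (r 0.57, adjusted permutation p 0.0790 for rho and 0.336 for r). Fos had a rho of 0.69 with dentate granule and 0.67 with astrocyte markers (adjusted permutation p 0.154 for each). Its rho with the beta-actin gap was -0.71 (adjusted permutation p 0.146).

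**Figure D4:**
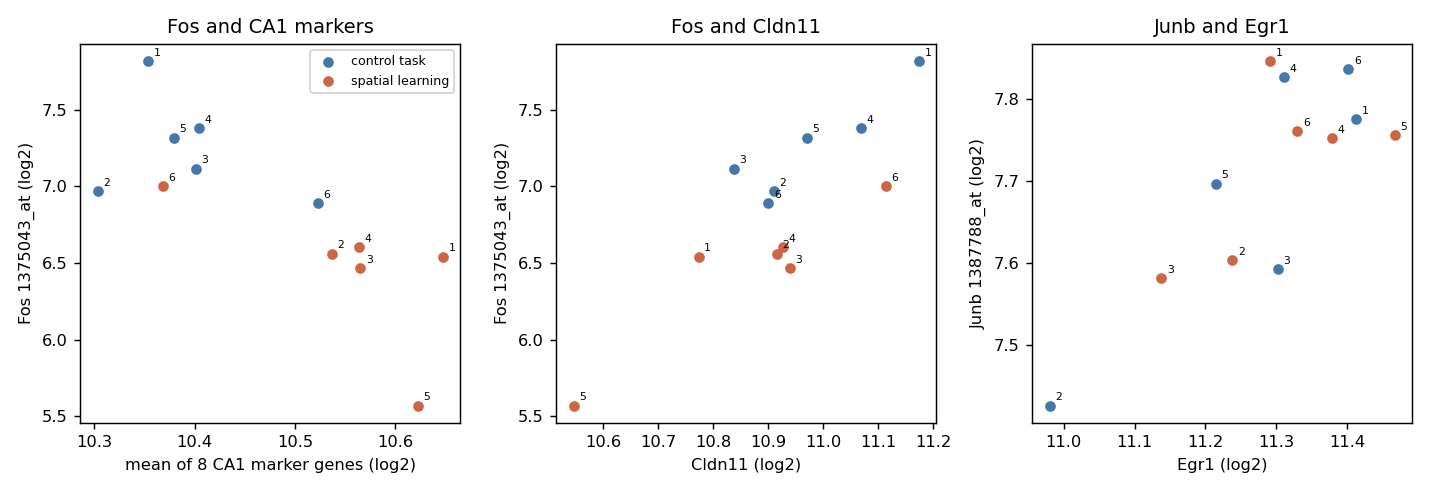
Log2 levels over the 12 arrays, numbered by replicate and coloured by group: Fos 1375043_at against the mean of 8 CA1 markers (left) and against Cldn11 (middle), and Junb against Egr1 (right). Fos is lower where CA1 markers are higher (r -0.78), spatial learning replicate 5 is lowest in both Fos and Cldn11, and control task replicate 2 is lowest in both Junb and Egr1.

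Junb was set against Egr1, Egr2 and Nr4a1, immediate-early transcription factors that neuronal activity induces, together with 9 other such factors. Junb and Egr1 had an r of 0.80 (permutation p 0.00213, adjusted 0.0767 over 36 relations) and a rho of 0.62 (permutation, adjusted p 0.280). Within the control task group r was 0.87 (exact permutation p 0.0333) and within the spatial learning group 0.66 (exact permutation p 0.157). Without control task replicate 2 and spatial learning replicate 3, the arrays farthest from the median of Junb, r was 0.44, so the relation rests on those arrays. Egr1 in control task replicate 2 was 10.98 and the other 11 arrays lay between 11.14 and 11.47. Junb had an r of 0.73 with Egr2 and of 0.62 with Nr4a1 (rho 0.58 for each, adjusted permutation p for r 0.146 and 0.273, and for rho 0.280), and 0.29 and 0.36 without the same arrays. On deviations from group means, Junb was positive with 10 of the 12 factors, Fos with 8 and Jun 1389528_s_at with 5. Fos had its highest r with Ier5 (0.53), followed by Klf4 (0.39) and Nr4a1 (0.34), and had -0.03 with Egr1. Jun 1389528_s_at had 0.71 with Klf6 and 0.30 with Nr4a2. It had -0.56 with Klf10, -0.37 with Egr1, -0.48 with Egr2 and -0.45 with Nr4a1. With Egr1 and Egr2, Jun 1369788_s_at had -0.54 and -0.55, but Jun 1374404_at had 0.09 and -0.09. On the levels themselves, Jun 1389528_s_at had an r of 0.11 with Klf6 (rho 0.15). With Klf10 its r was -0.54 and its rho -0.77 (adjusted permutation p 0.418 and 0.183). None of the 36 relations, tested on the levels of the 12 arrays, passed the adjusted threshold by r or by rho.

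**Figure D5:**
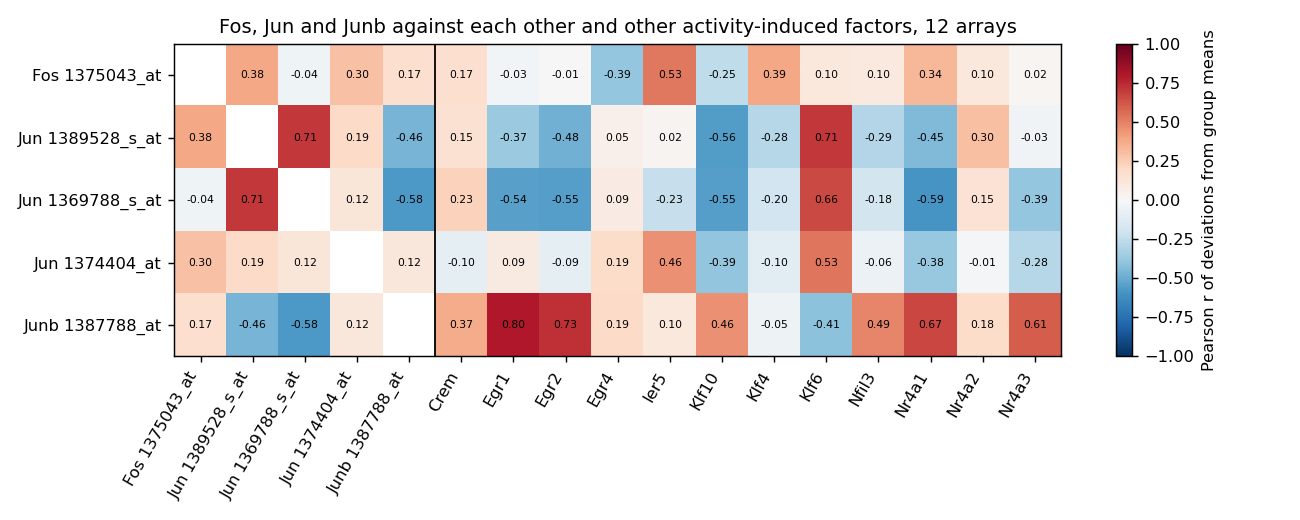
Pearson r of deviations from group means over 12 arrays between Fos, Jun and Junb probe sets and other activity-induced factors, with colour for the size and sign of r. Junb is positive with Egr1 (0.80), Egr2 (0.73) and Nr4a1 (0.67), and Jun 1389528_s_at is negative with them.

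The transcripts most like each member were found by the Pearson r of deviations from group means over 12 arrays, among 8006 probe sets of 6864 other genes. These values are the highest of many and carry no test. For Fos they were Pls3 (0.94), an actin-bundling protein, Cldn11 (0.92), a tight junction protein of myelin, Sema4d (0.91), a semaphorin, Septin7 (0.90), a cytoskeletal GTPase, Slc6a8 (0.90), the creatine transporter, Mapk1ip1l (0.89), Clic4 (0.88), an intracellular chloride channel protein, and Rprd2 (0.88). Spatial learning replicate 5, the array lowest in Fos, weighed on all of them. Without it their r with Fos ran from 0.74 (Mapk1ip1l, then at rank 82) to 0.86 (Pls3, then at rank 7). Other probe sets of the same genes were less like Fos, at 0.74 for Pls3, 0.74 for Cldn11, 0.44 and 0.15 for Clic4 and -0.50 for Slc6a8, and a second Rprd2 probe set below the filter had -0.55. The Clic4 probe set at 0.15 had a group difference of -0.31, unlike the -0.0022 of the one named. None of the 8 had a group difference as large as that of Fos, from -0.21 for Slc6a8 to -0.0022 for Clic4.

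For Jun 1389528_s_at the most alike were Tmem199 (0.90), Gcsh (0.90), a subunit of the glycine cleavage system, Bnip2 (0.89) and Hspa1a (0.86), a stress-induced chaperone. Without control task replicate 6 they had 0.86, 0.86, 0.87 and 0.80, at ranks 8, 7, 6 and 29. Hspa1a, at a mean log2 level of 4.24, lay close to the filter level of 4. For Junb they were Lmbr1l (0.87), Kat7 (0.85), a histone acetyltransferase, Usp38 (0.85), a deubiquitinase, and U2af1l4 (0.84), a splicing factor. Without control task replicate 2 they had 0.75, 0.70, 0.69 and 0.74, at ranks 32, 60, 71 and 35. The Lmbr1l probe set had a mean log2 level of 4.53, also close to the filter level. A second Lmbr1l probe set, at 4.57, had an r of -0.30 with Junb on all 12 arrays.

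Among the other AP-1 members, Jund, the third Jun protein, had a mean of 4.49 ± 0.47 in control task rats and 4.11 ± 0.24 in spatial learning rats (SD, n = 6 each), a difference of -0.38 (SE 0.19, limma adjusted p 0.492) close to the filter level. Fosb, another activity-induced Fos protein, had a difference of 0.00 (SE 0.10, adjusted p 0.993). Fosl1 and Fosl2 were below the filter, with control means of 1.67 and 3.47. The median of the 2 tested genes was -0.19, beside 0.01 over all tested probe sets.

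Of 24 leucine zipper partners that can join AP-1 proteins, 14 were on the array and 11 were tested, of which 3 lay higher and 8 lower (median -0.05). None passed the adjusted threshold, and the smallest unadjusted p-values belonged to Maf (-0.20; a second tested Maf probe set had 0.03), Atf1 (-0.18), Nfe2l1 (-0.14) and Mafg (0.12). Of 40 upstream regulators, 28 were on the array and 25 were tested, of which 9 lay higher and 16 lower (median -0.06). An unadjusted p under 0.05 was found for 8 of the 25, 2 higher and 6 lower, beside 10.9% of all tested probe sets, and 0 passed the adjusted threshold. These included Creb1, the factor that binds the cAMP response element (-0.32; a second tested probe set had -0.19), Stat3 (-0.26), Mapk8, which encodes the kinase JNK1 (-0.16), and Camk4, a calcium-dependent kinase that acts on CREB (-0.53), with limma adjusted p-values from 0.388 to 0.420. For Camk4 the filter level of 4 was passed by the control task mean (4.46) and not by the spatial learning mean (3.93), and for Elk4, 1 of the 2 higher genes, by the spatial learning mean (4.12) and not by the control task mean (3.98), so these counts hold genes near the filter level. Of 17 regulators of Fos and Jun turnover, 12 were on the array and tested, with 5 higher and 7 lower (median -0.01). None had an unadjusted p under 0.05, and those with the smallest were Cul4a (0.12), Elavl1 (-0.07), Cops5 (0.08) and Gsk3b (-0.18), a kinase that marks Jun for degradation.

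Of 25 genes known as AP-1 targets, 22 were on the array but 12 were below the filter, and of the 10 tested 5 lay higher and 5 lower (median -0.01). Ptgs2, the inducible cyclooxygenase, had means of 6.75 in control task rats and 6.33 in spatial learning rats, a difference of -0.41 (SE 0.15, limma adjusted p 0.427). Tgfb1 (-0.06), Vim (-0.16) and Penk (-0.09) followed in order of p. Of 17 other activity-induced transcription factors, 15 were on the array and 12 were tested, with 5 higher and 7 lower (median -0.02); Klf4 (-0.32), Nr4a3 (-0.11), Klf6 (0.17) and Ier5 (-0.09) had the smallest unadjusted p-values. None of the 22 tested genes of these lists passed the adjusted threshold.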

How the data were processed

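Levels are the log2 values that the authors deposited, made with GCRMA per the submitters' processing notes, in a version not given in the sources used here; the log base was read from the range of the values. GCRMA corrects background by probe sequence, normalizes arrays to each other and summarises 25-base probes, so dim probe sets gather near a floor. Each of the 12 arrays is 1 animal. Of 15923 probe sets, 57 manufacturer controls and 6256 with a mean log2 under 4 were left out and 9610 were tested with limma 3.58.1 (lmFit, eBayes with trend, R 4.3.3), two-sided, with Benjamini-Hochberg adjustment over all of them, and a threshold of 0.05. The script was tested on simulated data. Probe sets were named by platform annotation: 12783 had 1 symbol and 3083 none or several.

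Exact permutation tests ran over all splits of the 12 arrays into 6 and 6 (smallest two-sided p 0.00216). Correlations used 100000 permutations, or all 720 pairings within a group of 6. A gene in a list was read by its brightest probe set, and a gene in 2 lists counts under both. Genes named were all members, up to 4 per list with the smallest p (all of the other AP-1 members), and the 8, 4 and 4 most like Fos, Jun and Junb. Members and lists were chosen with earlier results of these data known. Alternatives changed the filter, the moderation, the array weights, the normalization, covariates, the replicate block, the test and the arrays used.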

Additional observations from a re-analysis of the deposited data

Results flagged for a closer look

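Dixon's test for a sample far from the rest of its group was applied to 12 groups of arrays, 2 for each of the 6 probe sets, and marked 2 of them; chance marks about 1 in 20. Fos 1375043_at in spatial learning replicate 5 was 5.57, where the next lowest array of the group was 6.47. The gap was 0.627 of the group's range, just past the critical value for 6 arrays, and without that array the difference of Fos was -0.61 (limma adjusted p 0.372). The dim Fos 1371283_at in control task replicate 4 was 2.56, within a range of all arrays that was 0.076 wide.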

How the results depend on the processing

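Under 26 alternatives each, the tested Fos and Jun probe sets kept a lower mean in the spatial learning group and none passed the adjusted threshold: Fos ranged from -1.02 to -0.38 (adjusted p 0.137 to 0.838), Jun 1389528_s_at from -0.35 to -0.07, Jun 1369788_s_at from -0.21 to -0.05 and Jun 1374404_at from -0.24 to -0.07. The alternatives in filter, moderation, replicate block and test cannot change the difference itself, only its p-value, so they say nothing about its direction. Leaving out 1 array at a time gave -0.90 to -0.61 for Fos. Junb changed sign to -0.074 with the CA1 marker mean as a covariate, and ranged from -0.029 to 0.053 when 1 array was left out, below 0 without control task replicate 2 (-0.029) and without spatial learning replicate 1 (-0.0017). The number of probe sets past the adjusted threshold, 0 as reported, was 3 with array weights (Dgkz, Map1b, Cit), 2 with the oligodendrocyte marker mean as a covariate (Dgkz, Vxn), 5 without the 3 arrays high in choroid plexus or meningeal transcripts (Dgkz, Atp1b2, Bsn, Ralgapb and an unnamed one) and 0 to 3 leaving out 1 array (3 without control task replicate 6: Dgkz, Cit and an unnamed one); these genes were named after their values were seen. The number with an unadjusted p under 0.05 was 605 with the hexokinase gap as a covariate, against 1048. Leaving out 1 array gave -0.57 to -0.35 for Fos minus Jun, -0.92 to -0.63 for Fos minus Junb and -0.41 to -0.24 for Jun minus Junb. The r of Jun 1389528_s_at with Jun 1369788_s_at was 0.78 without the 3 arrays and 0.71 after regression on the hexokinase gap and group (adjusted permutation p 0.174 and 0.102), and that regression turned Fos with Jun 1369788_s_at to -0.065. No label says whether replicate numbers pair the arrays. Same-numbered deviations correlated at -0.171 to 0.0821 in 6 pairs, which cannot show how the animals were handled. With the number as a block Fos differed by -0.79 (limma adjusted p 0.544). The oligodendrocyte covariate and the array-wise alternatives for gene pairs and marker lists were chosen after seeing the data.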
